A study of Mus musculus with 9 samples.

Results

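A list of 43 cell cycle genes was followed through CELF2-KI RIP, IgG RIP and input. RNA immunoprecipitation sequencing (RIP-seq) reads the transcripts bound to a protein that has been precipitated with its antibody. The genes were listed by name, with earlier results of these data known, and they fall into 21 genes of mitosis, 17 genes of DNA replication and 5 regulators of G1 and of entry into S phase. All 43 were found in the data, and all 43 were among the 15267 protein-coding genes tested. The 9 libraries came from the cytoplasmic fraction of mouse cortex at postnatal day 0, with 3 biological replicates of each condition. Every sample, controls included, carried 1 knock-in allele of *Celf2* (heterozygous CELF2 p.R493H), so wild-type tissue takes no part in the comparisons. CELF2-KI RIP (with the CELF2 antibody) used 10 µg of a rabbit antibody against CELF2 for 3 hours, IgG RIP (with IgG) used normal rabbit IgG in its place, and input was RNA of the fraction itself, kept back before precipitation. The fraction mixes neurons, radial glia, astrocytes, oligodendrocyte precursors, microglia and endothelial cells, so a transcript's level reflects how many cells make it and how much each makes, and these cannot be told apart.

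CELF2 is an RNA-binding protein that recognizes GU-rich stretches of RNA and acts on splicing in the nucleus and on stability and translation in the cytoplasm. The cell cycle genes followed here are used by dividing cells. In G1, D-type cyclins activate their kinases and release E2F factors, which switch on genes for DNA replication. Replication origins are licensed by loading the MCM helicase with the help of CDC6 and CDT1, and the helicase fires once CDC45 and the GINS complex join it. In mitosis, CDK1 with cyclin B drives entry, Aurora and Polo-like kinases build the spindle, and the spindle checkpoint holds the cell until every kinetochore is attached. In newborn cortex these programs belong to the remaining radial glia and intermediate progenitors, to glial precursors, and to dividing vascular and microglial cells, whereas neurons have left the cycle. D-type cyclins are an exception, since some neurons are known to express them.

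Promoter letters of replication and mitosis genes are shown here because the list was not chosen on them. Of the 43 genes, 33 had a promoter in the RefSeq table for GRCm38.p6, with 35 promoters in all. The 250 bases before each start were searched on both strands for the cell cycle genes homology region, spelled TTTGAA or TTCGAA, and for E2F sites, spelled TTTGGCGC, TTTCCCGC, TTTGCCGC or TTTCGCGC. No spelling of the first kind lies inside a spelling of the second, and overlapping matches of the second kind are shown as 1 run. The first kind occurred in 8 of 18 promoters of mitosis genes (44.4%), in 3 of 15 promoters of replication genes (20%) and in 17.1% of all 32851 promoters in the table, with *Bub3* counted by 2 of the 8. The second kind occurred in 1 of 18 mitosis promoters (5.56%), in 5 of 15 replication promoters (33.3%) and in 1.86% of all promoters. The difference between the classes was not tested. A match is a description of the letters and not of a factor's binding, and RIP-seq measures the RNA, not the promoter. As examples, the 140 bases before the promoter's listed start are given 5′ to 3′ on the gene's strand, with matches in capitals, for a mitosis gene that rose over IgG RIP (*Cdk1*, chr10:69352913-69353052, minus strand), a mitosis gene that fell (*Mki67*, chr7:135716380-135716519, minus strand), and the replication genes *Mcm6* (chr1:128359706-128359845, minus strand) and *Pola1* (chrX:93632156-93632295, minus strand). The listed starts of *Mki67* and *Pola1* lie inside the gene spans used here, which reach 135716450 and 93632387. Their windows therefore overlap the genes.
Cdk1: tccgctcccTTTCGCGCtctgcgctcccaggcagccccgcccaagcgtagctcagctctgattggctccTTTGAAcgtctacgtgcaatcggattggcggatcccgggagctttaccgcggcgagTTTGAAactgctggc
Mki67: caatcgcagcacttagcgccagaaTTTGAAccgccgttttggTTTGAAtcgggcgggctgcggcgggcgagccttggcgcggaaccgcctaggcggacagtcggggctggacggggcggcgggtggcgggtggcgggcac
Mcm6: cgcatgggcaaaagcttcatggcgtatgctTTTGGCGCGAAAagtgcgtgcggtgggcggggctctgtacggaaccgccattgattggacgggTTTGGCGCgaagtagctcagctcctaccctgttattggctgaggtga
Pola1: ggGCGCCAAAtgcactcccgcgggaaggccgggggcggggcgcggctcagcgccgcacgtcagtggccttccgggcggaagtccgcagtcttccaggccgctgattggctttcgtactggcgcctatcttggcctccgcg

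Protein-coding genes received 13523190 to 16840230 estimated counts with the CELF2 antibody, 9347252 to 14965224 with IgG and 55250725 to 78514665 in input. Input values therefore carried the smallest counting error. The 45S rRNA precursor took 34.95%, 32.95% and 10.82% of all counts in IgG RIP 1, 2 and 3. It took 0.81% to 1.76% in CELF2-KI RIP and 0.41% to 0.80% in input, and it was left out of the library sizes. Levels are CPM, counts scaled to a common library size with edgeR's trimmed mean of M values (TMM), without correction for transcript length, so levels are compared between libraries and not between genes. *Celf2* mRNA itself had a mean of 638 CPM ± 164 (SD, n = 3) with the CELF2 antibody, 233 ± 33.4 with IgG and 296 ± 14.9 in input.

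A gene was called when its false discovery rate (FDR) was under 0.01 and it differed 2-fold or more, by edgeR's quasi-likelihood test over all tested genes. Against IgG RIP, 5 of the 43 cell cycle genes were higher in CELF2-KI RIP (11.6%, against 13.4% of all tested genes) and 4 were lower (9.30%, against 13.6%). Against input, 3 were higher (6.98%, against 14.6%) and 7 were lower (16.3%, against 15.5%). Higher than both controls were *Bub3*, *Ccnd1* and *Ccnd2* (6.98%, against 7.58% of all genes), and lower than both were *Mki67*, *Ccnb2*, *Gins1* and *Gins2* (9.30%, against 9.54%). The list as a whole was thus called at shares close to, or below, those of all genes. For the 43 genes the log2 fold change had a median of -0.21 over IgG RIP and -0.25 over input, against -0.06 and 0.19 for all tested genes. Both comparisons use the same CELF2-KI RIP libraries. The split depended on scaling: with total counts, 3 were higher and 10 lower than IgG RIP and 1 higher and 12 lower than input, and the median of all tested genes moved by -0.37 and -0.46. With that scaling 6.14% of all tested genes were higher and 22.4% lower than IgG RIP, and 3.48% higher and 23.5% lower than input. Upper-quartile scaling gave 5 and 10 against IgG RIP and 1 and 9 against input, where 7.94% and 19.8%, then 7.71% and 19.4%, of all genes were called. TMM over coding and noncoding genes gave 5 and 9, then 1 and 11 (8.84% and 18.5%, then 4.63% and 22.1%, of all genes). DESeq2's size factors gave 5 and 4, then 1 and 7 (12% and 14.9%, then 10.3% and 17.8%).

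**Figure D1:**
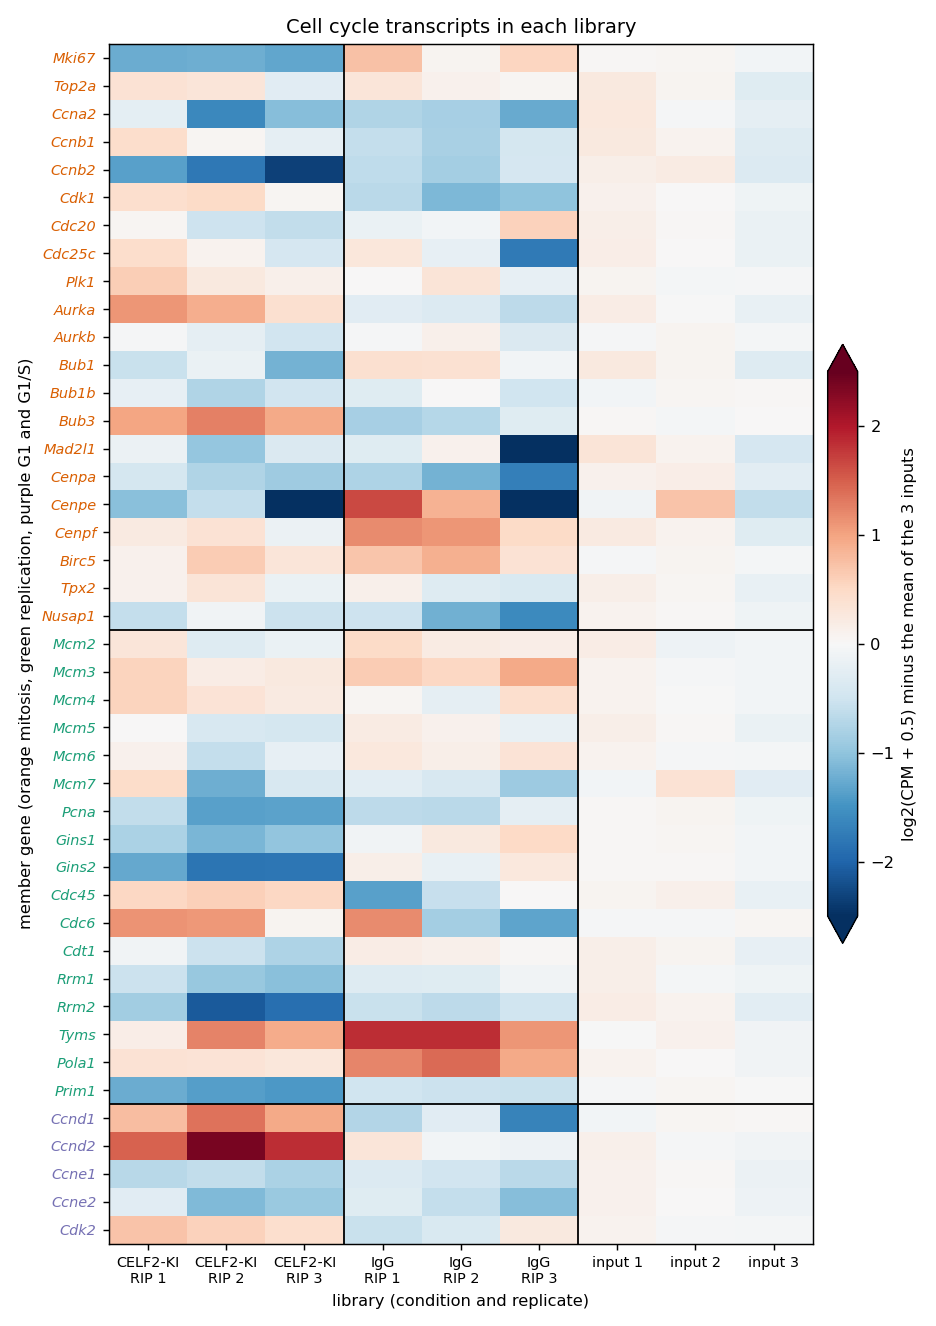
Each row is a cell cycle gene and each column a library; colour gives log2(CPM + 0.5) minus the mean of the 3 inputs, from blue (lower) to red (higher), with gene names in orange for mitosis, green for replication and purple for G1 and G1/S. *Ccnd1*, *Ccnd2* and *Bub3* are red in all 3 CELF2-KI RIP libraries, *Mki67*, *Ccnb2*, *Gins2*, *Rrm2* and *Prim1* are blue, and *Tyms* and *Pola1* are red in IgG RIP.

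Without any threshold, 6 of the 43 genes were higher in each of the 3 CELF2-KI RIP libraries than in any of the 6 controls (14.0%, against 25.2% of all tested genes). These were *Aurka*, *Bub3*, *Cdc45*, *Ccnd1*, *Ccnd2* and *Cdk2*. For 7 genes the 3 libraries were below every control (16.3%, against 19.9% of all genes), namely *Mki67*, *Ccnb2*, *Gins1*, *Gins2*, *Rrm1*, *Rrm2* and *Prim1*. *Pola1* lay between the controls without overlap, below all IgG RIP and above all input libraries, and the remaining genes overlapped at least 1 control library.

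Replication and mitosis genes were set side by side. Of the 17 replication genes, 0 were called as rising over IgG RIP (against 13.4% of all tested genes), with 1 higher at an unadjusted p under 0.05 in edgeR's quasi-likelihood test (*Cdc45*) and 1 called by DESeq2. Against input, 0 were called higher (against 14.6% of all tested genes), with 2 higher at an unadjusted p under 0.05 (*Pola1* and *Tyms*) and 0 called by DESeq2. The same 17 included 2 genes lower than IgG RIP (11.8%, against 13.6% of all tested genes) and 5 lower than input (29.4%, against 15.5%). Of the 21 mitosis genes, 3 were higher (14.3%, against 13.4% of all genes) and 2 lower than IgG RIP (9.52%, against 13.6%), and 1 was higher (4.76%, against 14.6%) and 2 lower than input (9.52%, against 15.5%). The median log2 fold change over IgG RIP was -0.57 for replication genes (quartiles -0.90 and -0.31) and 0.07 for mitosis genes (quartiles -0.50 and 0.54), a gap of -0.64. Without IgG RIP 3 the gap was -0.34. Over input both medians were -0.25. In IgG RIP over input the medians were 0.11 for replication and -0.26 for mitosis, a gap of 0.37. The 3 gaps share libraries pairwise and are no independent evidence of each other.

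A ratio taken inside a library does not depend on how libraries are scaled. The summed CPM of the replication genes divided by that of the mitosis genes was 1.07, 0.933 and 1.16 with the CELF2 antibody, 1.56, 1.70 and 1.67 with IgG and 1.24, 1.25 and 1.32 in input. The 3 conditions did not overlap, with CELF2-KI RIP lowest and IgG RIP highest. The separation did not hold once *Tyms* and *Bub3* were left out together, and neither was left out alone. Without them the ratio was 1.27, 0.952 and 1.29 with the CELF2 antibody, 1.18, 1.29 and 1.55 with IgG and 1.30, 1.29 and 1.41 in input, and the conditions overlapped. The difference between the replication and mitosis medians of log2 CPM within a library, which no single gene dominates, was 0.91, 0.81 and 0.90 with the CELF2 antibody, 1.11, 1.32 and 1.81 with IgG and 1.07, 1.13 and 1.02 in input. By that measure all 3 CELF2-KI RIP libraries lay below all 6 controls, while IgG RIP and input overlapped.

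**Figure D2:**
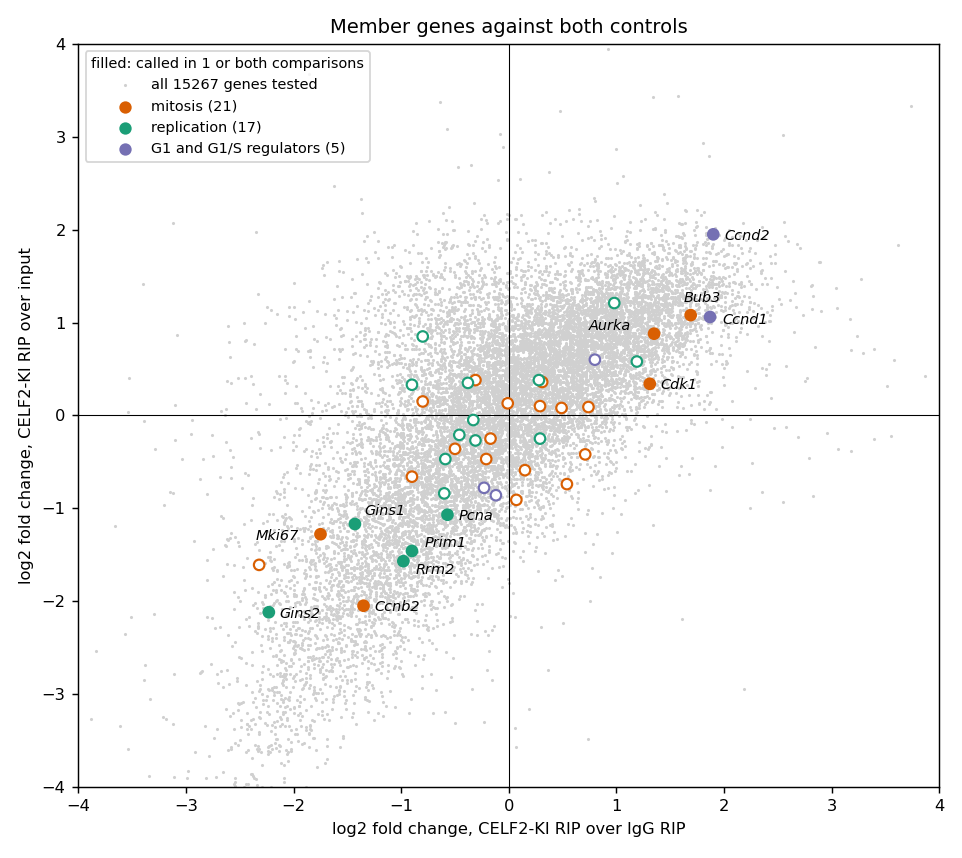
Each point is a gene, with its log2 fold change in CELF2-KI RIP over IgG RIP on the horizontal axis and over input on the vertical axis; grey points are all 15267 tested genes (139 lie outside the axes), and coloured points are the cell cycle genes, filled and named where called in either comparison. Replication genes called in either comparison all lie in the lower left, whereas mitosis genes lie at both ends and *Ccnd1* and *Ccnd2* at the upper right.

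Among the G1 regulators, the cyclin D genes *Ccnd1* and *Ccnd2* rose in CELF2-KI RIP. *Ccnd2* (chr6:127125162-127152188 in GRCm38.p6, like the other gene positions), whose product activates CDK4 and CDK6, was at 970.2, 1800.2 and 1251 CPM with the CELF2 antibody, 430.1, 332 and 316 with IgG and 378, 339.7 and 325 in input. The log2 fold change of *Ccnd2* was 1.90 over IgG RIP (SE 0.21, FDR 5.01e-05) and 1.95 over input (SE 0.21, FDR 3.76e-05). The lowest library with the CELF2 antibody was above the highest control, while IgG RIP and input overlapped. Both calls held in all 9 fits that left out 1 library and in all 12 other alternatives. *Ccnd1* (chr7:144929931-144939831), for another D-type cyclin, was at 82.5, 125 and 94.2 CPM with the CELF2 antibody, 28.7, 39.5 and 14.8 with IgG and 46.2, 49.8 and 49.0 in input. It was 1.87 higher than IgG RIP on the log2 scale (SE 0.30, FDR 0.000433), and this call held without any 1 library. Over input the log2 fold change was 1.06 (SE 0.29, FDR 0.00898), close to both limits of the call. That call was lost without any of CELF2-KI RIP 1, 2 or 3, IgG RIP 1 or input 1, 2 or 3, with a log2 fold change between 0.87 and 1.18 and an FDR between 0.0111 and 0.0412. Of the 12 other alternatives it held in 2.

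The remaining G1/S genes were not called. *Cdk2*, the kinase that cyclin E activates, was at 18.6, 16.8 and 15.0 CPM with the CELF2 antibody, 7.38, 8.42 and 13.2 with IgG and 11.8, 10.9 and 10.7 in input. CELF2-KI RIP lay above all controls, which overlapped each other, but the log2 fold changes of 0.80 over IgG RIP (FDR 0.00997) and 0.60 over input (FDR 0.0313) were under 2-fold. *Ccne1*, which encodes cyclin E1, was at 3.26 CPM ± 0.216 (SD, n = 3) with the CELF2 antibody, 3.83 ± 0.511 with IgG and 5.62 ± 0.528 in input, with a log2 fold change of -0.78 over input (FDR 0.00941). *Ccne2*, for cyclin E2, was at 2.04 ± 0.805, 2.22 ± 0.688 and 3.71 ± 0.337 CPM. Its log2 fold change over input was -0.86, and neither cyclin E gene was called.

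Mitotic entry is driven by CDK1 with its cyclins. *Cdk1* (chr10:69335146-69352912) was at 16, 16.6 and 12.2 CPM with the CELF2 antibody, 7.26, 5.15 and 5.59 with IgG and 12.7, 11.9 and 10.9 in input. It was higher than IgG RIP by 1.31 on the log2 scale (SE 0.19, FDR 0.000257), whereas CELF2-KI RIP and input overlapped (FDR 0.133). Of its 3 conditions it was thus IgG RIP that stood apart, with a log2 fold change of -0.97 over input (FDR 0.00315). Scaling to total counts (0.94) and glmTreat, which tests against 2-fold itself, ended the *Cdk1* call over IgG RIP. *Ccnb1*, for cyclin B1, was at 20.2, 15.2 and 12.5 CPM with the CELF2 antibody, 9.64, 8.23 and 10.7 with IgG and 17.5, 15.7 and 11.7 in input. *Ccnb2* (chr9:70407689-70421554), for cyclin B2, was at 2.56, 1.77 and 1.07 CPM with the CELF2 antibody, 4.57, 3.87 and 5.38 with IgG and 8.19, 8.52 and 5.73 in input. The cyclin B genes thus differed in direction against IgG RIP, with a log2 fold change of 0.74 for *Ccnb1* (FDR 0.0164, not called) and -1.35 for *Ccnb2* (SE 0.33, FDR 0.00553). *Ccnb2* also fell against input, by 2.05 on the log2 scale (SE 0.32, FDR 0.000353), and all 9 fits without 1 library kept that call. Its call against IgG RIP rested on 12 to 32 counts per CELF2-KI RIP library and was lost without any of CELF2-KI RIP 2 or 3, IgG RIP 1 or 3 or input 1, with a log2 fold change from -1.36 to -1.09 and an FDR from 0.0116 to 0.0204.

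*Ccna2*, for cyclin A2, was at 10.9 ± 5.48 CPM with the CELF2 antibody, 10.4 ± 1.91 with IgG and 20.4 ± 3.55 in input, so both precipitates lay below input without being called. *Cdc25c*, a phosphatase that activates CDK1, was at 3.37 ± 1.12, 2.40 ± 1.70 and 3.19 ± 0.421 CPM and overlapped in all conditions. *Plk1*, for the Polo-like kinase, was at 14.1 ± 2.68, 11.4 ± 2.19 and 11 ± 0.551 CPM, with FDR 0.197 over IgG RIP and 0.124 over input. *Top2a*, which encodes the topoisomerase that untangles chromosomes, was at 66.6 ± 15.4, 67.1 ± 6.07 and 60.8 ± 11.5 CPM (FDR 0.972 over IgG RIP and 0.573 over input). *Top2a* is often read together with *Mki67* as a mark of dividing cells, and here *Mki67* fell while *Top2a* was not called.

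*Mki67* (chr7:135689784-135716450), for the proliferation marker Ki-67, which coats mitotic chromosomes, was at 16, 16.3 and 15.4 CPM with the CELF2 antibody, 64.3, 40.5 and 56.0 with IgG and 39.5, 39.8 and 36.6 in input. The 3 conditions did not overlap. It fell in CELF2-KI RIP by 1.75 on the log2 scale against IgG RIP (SE 0.17, FDR 2.23e-05) and had a log2 fold change of -1.28 over input (SE 0.17, FDR 0.000105). Without any 1 library the call held in both comparisons, and the log2 fold change over IgG RIP stayed between -1.91 and -1.61.

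The Aurora kinases act at centrosomes (Aurora A) and at centromeres and the midzone (Aurora B). *Aurka* was at 12.8, 11.1 and 7.68 CPM with the CELF2 antibody, 4.57, 4.36 and 3.44 with IgG and 6.56, 5.66 and 4.93 in input, with no overlap between CELF2-KI RIP and the controls. The log2 fold change of *Aurka* was 1.35 over IgG RIP (SE 0.24, FDR 0.000939), and the call ended with total counts (0.99), with curated coding transcripts only and when tested against 2-fold itself (glmTreat). Over input it was 0.88 (FDR 0.00781), under 2-fold. *Aurkb* was at 7.60, 6.54 and 5.44 CPM with the CELF2 antibody, 7.57, 8.52 and 5.95 with IgG and 7.64, 8.20 and 7.47 in input, with FDR 0.522 over IgG RIP and 0.303 over input. *Tpx2*, whose product activates Aurora A, was at 20 ± 3.45, 16.3 ± 3.37 and 18.6 ± 2.12 CPM, *Birc5*, for the Aurora B partner survivin, at 12 ± 2.29, 14.9 ± 2.8 and 9.21 ± 0.416 CPM, and *Nusap1*, for a spindle-binding protein, at 5.60 ± 1.22, 3.40 ± 1.5 and 7.5 ± 0.553 CPM. Neither *Tpx2* nor *Birc5* nor *Nusap1* was called between CELF2-KI RIP and a control.

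Of the spindle checkpoint genes, *Bub3* was the member called. *Bub3* (chr7:131560367-131571895), whose product brings BUB1 and BUBR1 to kinetochores, was at 104, 126 and 101 CPM with the CELF2 antibody, 29.0, 31.4 and 42.1 with IgG and 53.3, 50.5 and 52.3 in input. The lowest CELF2-KI RIP library was well above the highest control. The log2 fold change of *Bub3* was 1.69 over IgG RIP (SE 0.16, FDR 1.79e-05) and was called in all 9 fits without 1 library and in all 12 other alternatives. Over input it was 1.08 (SE 0.15, FDR 0.000169) and was under 2-fold without CELF2-KI RIP 2 (0.98) or without input 2 (0.95). Of the 12 other alternatives 4 kept the call, and the lowest value was 0.62. *Bub1*, the checkpoint kinase, was at 3.93 ± 1.49, 7.4 ± 1.38 and 6.22 ± 1.29 CPM, the other way round from *Bub3*, at -0.90 on the log2 scale against IgG RIP (FDR 0.0304, not called). *Bub1b*, for BUBR1, was at 12.9 ± 2.45, 15.0 ± 2.8 and 17.9 ± 0.838 CPM, and *Cdc20*, the target of the checkpoint, at 11.6 ± 3.17, 16.5 ± 5.03 and 14.9 ± 1.63 CPM. *Mad2l1*, for MAD2, had 32, 16 and 24 counts in CELF2-KI RIP and 36, 32 and 0 counts in IgG RIP, too few for its level in the precipitates to be read closely.

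At the kinetochore, *Cenpa*, for the histone variant that marks centromeres, was at 6.64, 5.24 and 4.73 CPM with the CELF2 antibody, 5.19, 3.77 and 2.44 with IgG and 9.95, 10.3 and 7.5 in input. Both precipitates lay below input. *Cenpf*, for a protein of the outer kinetochore, was at 20.6, 22.8 and 16 CPM with the CELF2 antibody, 40.7, 38.4 and 24.7 with IgG and 20.6, 18.8 and 14.2 in input, so IgG RIP lay above both other conditions (log2 fold change -0.80 for CELF2-KI RIP over IgG RIP, FDR 0.0129, not called). *Cenpe*, for a kinetochore motor, had 22, 34 and 0 counts with the CELF2 antibody, 227, 81 and 0 with IgG and 244, 648 and 159 in input, a spread too wide for a comparison.

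Replication genes were ordered from origin licensing to DNA synthesis. *Mcm2* to *Mcm7* encode the 6 subunits of the replicative helicase, and 0 of the 6 were called in any of the 3 comparisons. Of all tested genes, 13.4% were higher and 13.6% lower than IgG RIP, and 14.6% higher and 15.5% lower than input. For IgG RIP over input the shares were 6.79% and 5.004%, so few calls among 6 genes are usual. At an unadjusted p under 0.05 in edgeR's quasi-likelihood test, 2 were lower than IgG RIP (*Mcm3* and *Mcm6*) and 1 was higher in IgG RIP than in input (*Mcm3*), and DESeq2 called 0 of them. Their summed level was 231, 153 and 171 CPM with the CELF2 antibody, 228, 204 and 221 with IgG and 202, 189.7 and 175 in input. The helicase transcripts of CELF2-KI RIP overlapped with those of both controls. Among the 6, *Mcm6* had the lowest FDR against IgG RIP (log2 fold change -0.46, FDR 0.0374). Loading factors gave *Cdt1* at 6.58 ± 1.79, 9.90 ± 0.543 and 9.15 ± 1.22 CPM (FDR 0.0412 over IgG RIP), and *Cdc6* at 28, 28 and 9 counts with the CELF2 antibody, against 37, 2 and 0 with IgG and 46, 66 and 49 in input.

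Of the activators of the helicase, *Gins1* and *Gins2* fell. *Gins2* (chr8:120581266-120589075), a subunit of the GINS complex, was at 1.12, 0.616 and 0.625 CPM with the CELF2 antibody, 3.88, 2.97 and 4.23 with IgG and 3.53, 3.51 and 3.28 in input. It fell by 2.23 on the log2 scale against IgG RIP (SE 0.33, FDR 0.000271) and had a log2 fold change of -2.12 over input (SE 0.32, FDR 0.000284), on 14, 8 and 7 counts in CELF2-KI RIP. *Gins1*, for another GINS subunit, was at 1.92, 1.39 and 1.61 CPM, against 3.44, 4.46 and 5.38 CPM in IgG RIP and 3.77, 3.81 and 3.48 CPM in input. It fell by 1.43 on the log2 scale against IgG RIP (FDR 0.0014) and had a log2 fold change of -1.17 over input (FDR 0.00363). The call against input was lost without any of CELF2-KI RIP 2 or 3 or input 1, 2 or 3, with a log2 fold change from -1.25 to -1.06 and an FDR from 0.0113 to 0.0162. The other GINS genes, *Gins3* and *Gins4*, named after their values were seen, were not called, with log2 fold changes of 0.20 (FDR 0.678) and -0.12 (FDR 0.541) over IgG RIP and -1.06 (FDR 0.0213) and -0.48 (FDR 0.0198) over input. *Cdc45*, whose product joins the helicase with GINS, was at 7.76, 8.16 and 7.76 CPM with the CELF2 antibody, 1.75, 3.37 and 5.30 with IgG and 5.51, 5.77 and 4.58 in input. Its CELF2-KI RIP libraries lay above all controls, at 1.19 on the log2 scale against IgG RIP. With an FDR of 0.013 it was not called, and IgG RIP varied widely.

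Of the fork genes, *Prim1* and *Pcna* fell in CELF2-KI RIP against input, and *Pola1* was not called. *Prim1*, for the primase that starts each DNA strand, was at 4.16, 3.77 and 3.57 CPM with the CELF2 antibody, 7.32, 7.14 and 7.02 with IgG and 10.3, 10.9 and 10.5 in input. The 3 conditions formed separate steps. *Prim1* fell by 1.46 on the log2 scale against input (SE 0.16, FDR 4.3e-05), and against IgG RIP its log2 fold change of -0.90 was under 2-fold (FDR 0.00113). *Pcna*, for the sliding clamp that holds polymerases on DNA, was at 34, 20.2 and 20.3 CPM with the CELF2 antibody, 33.1, 32.7 and 44.9 with IgG and 53.1, 55.1 and 48.7 in input. CELF2-KI RIP lay below input throughout but overlapped IgG RIP. The log2 fold change of *Pcna* was -1.07 over input (SE 0.22, FDR 0.0016), and without CELF2-KI RIP 2 (-0.94) or 3 (-0.95) it was under 2-fold. *Pola1*, for the catalytic subunit of DNA polymerase alpha, which works with primase, was at 18.8, 18.5 and 17.8 CPM with the CELF2 antibody, 34.4, 39.9 and 28.7 with IgG and 15.4, 14.7 and 13.6 in input. Here IgG RIP stood above both other conditions, and CELF2-KI RIP against IgG RIP gave a log2 fold change of -0.90 (FDR 0.000509), under 2-fold.

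Among the nucleotide supply genes, *Rrm2* fell against input. Ribonucleotide reductase makes deoxynucleotides from a large subunit (*Rrm1*) and a small subunit made in S phase (*Rrm2*). *Rrm2* was at 18.2, 7.47 and 8.75 CPM with the CELF2 antibody, 22.8, 21.3 and 23.9 with IgG and 38.4, 35.8 and 28.0 in input, and *Rrm1* at 43.6, 32.6 and 30.7, then 50.7, 51.8 and 59.8, then 70.8, 61.6 and 59.4 CPM. For both genes all CELF2-KI RIP libraries lay below all controls. *Rrm2* fell by 1.57 on the log2 scale against input (SE 0.29, FDR 0.00101) and had -0.98 against IgG RIP (FDR 0.016, not called). With a replicate block the latter was -1.06 and called, as it was in 4 other alternatives and without CELF2-KI RIP 1. *Rrm1* had -0.84 against input (FDR 0.000919) and -0.60 against IgG RIP (FDR 0.00759), both under 2-fold. *Tyms*, for thymidylate synthase, which makes thymidine nucleotides, was at 53.4, 112 and 90.0 CPM with the CELF2 antibody, 172, 172 and 102 with IgG and 46.8, 50.8 and 44.7 in input. Its order differed from that of the reductase genes, with input lowest and IgG RIP highest. Over input the log2 fold change of *Tyms* was 0.85 with all transcripts and -1.10 with curated coding transcripts only, so its direction depended on which transcripts were counted.

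**Figure D3:**
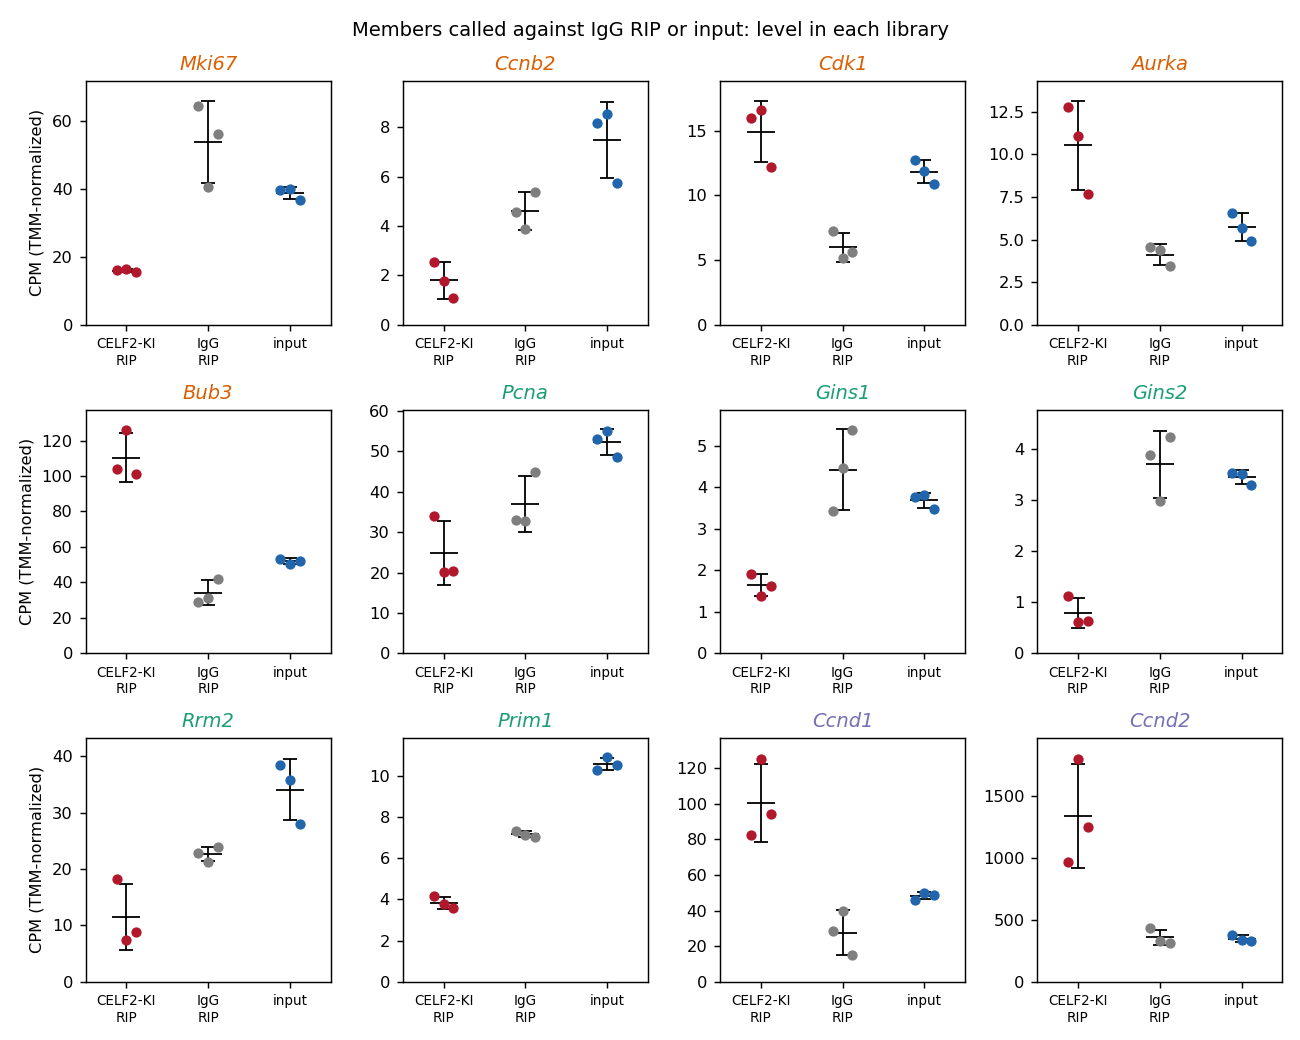
Level in CPM of the 12 cell cycle genes called in CELF2-KI RIP against either control, with each dot a library and bars the mean ± SD of the 3 libraries of a condition; gene names are orange for mitosis, green for replication and purple for G1. *Ccnd2*, *Bub3* and *Aurka* lie above both controls, *Mki67*, *Gins1* and *Gins2* lie below both, and *Cdk1* lies above IgG RIP but near input.

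Ratios between related genes within a library were compared, since scaling cannot change them. The ratio of *Ccnb1* to *Ccnb2* counts was 7.87, 8.57 and 11.7 with the CELF2 antibody, 2.11, 2.13 and 1.99 with IgG and 2.14, 1.84 and 2.05 in input. IgG RIP and input thus gave nearly the same ratio, and in CELF2-KI RIP it was 4.45-fold higher than in IgG RIP and 4.60-fold higher than in input. *Aurka* to *Aurkb* was 1.68, 1.69 and 1.41 with the CELF2 antibody, 0.603, 0.512 and 0.578 with IgG and 0.859, 0.691 and 0.66 in input, or 2.82-fold and 2.17-fold higher than in the controls. *Gins1* to *Gins2* was 1.71, 2.25 and 2.57 in CELF2-KI RIP against 0.887 to 1.5 in IgG RIP and 1.06 to 1.08 in input. In each of these 3 pairs CELF2-KI RIP did not overlap with either control. In CELF2-KI RIP *Ccnb2* had only 32, 23 and 12 counts and *Gins2* only 14, 8 and 7, so their ratios rest on few counts. How often other gene pairs separate this way was not counted. Taken singly, 25.2% of all tested genes lay above every control library in CELF2-KI RIP and 19.9% below. *Ccnd2* to *Ccnd1* was 11.8, 14.4 and 13.3 in CELF2-KI RIP, within the 8.39 to 21.4 of IgG RIP and above the 6.63 to 8.18 of input. *Rrm1* to *Rrm2* was 2.40, 4.37 and 3.51, overlapping IgG RIP (2.23 to 2.5) and above input (1.72 to 2.12). *Ccne1* to *Ccne2* overlapped in all 3 comparisons. With 3 libraries a group, the smallest p an exact two-sided permutation test can give is 0.1, which each non-overlapping pair reached, and over the 18 tests the adjusted p was 0.164.

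**Figure D4:**
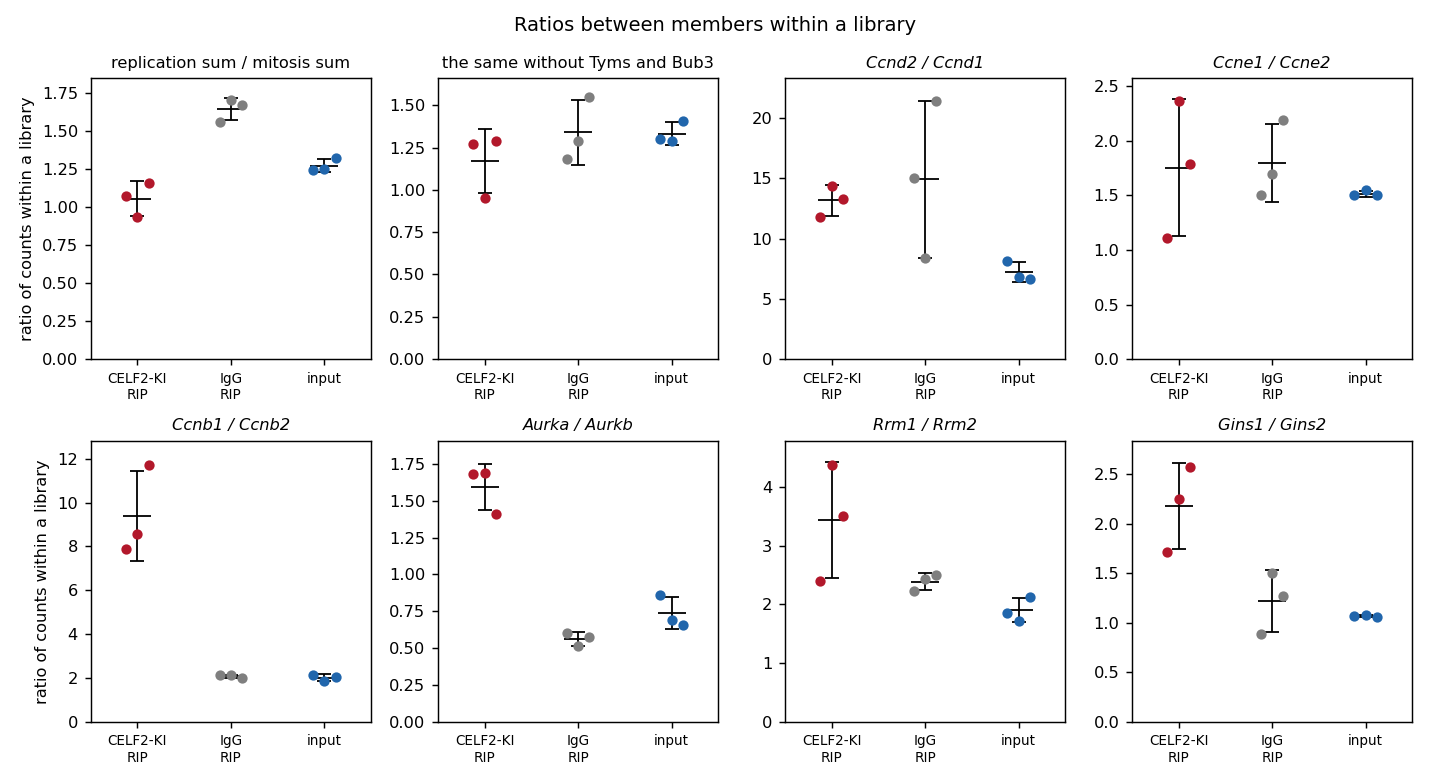
Ratios of counts within a library, with each dot a library and bars the mean ± SD of the 3 libraries of a condition: first the summed replication genes over the summed mitosis genes, with and without *Tyms* and *Bub3*, then 6 pairs of related genes. *Ccnb1* / *Ccnb2* lies between 7.87 and 11.7 in CELF2-KI RIP and near 2 in every control library. The *Ccnb2* counts behind it were 32, 23 and 12 in CELF2-KI RIP.

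IgG RIP shows which transcripts come down without the CELF2 antibody. Against input, 2 of the 43 cell cycle genes were higher in IgG RIP (4.65%, against 6.79% of all tested genes) and 1 was lower (2.33%, against 5.004%). *Tyms* was higher by 1.65 on the log2 scale (SE 0.27, FDR 0.00128) and *Pola1* by 1.23 (SE 0.15, FDR 0.000299), and for both every IgG RIP library lay above every input. *Cenpa* fell by 1.28 (SE 0.28, FDR 0.00606), and this call was lost without any of IgG RIP 2 or input 1, 2 or 3 (log2 fold change from -1.42 to -1.20, FDR from 0.0116 to 0.0273). The *Tyms* call was lost when counts of noncoding or predicted transcripts were left out, the lowest log2 fold change being 0.15.

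How a gene's counts split over its transcripts differed between conditions for some members. The 43 genes had 102 transcript rows, 19 genes had 1 row and 24 had more, up to 8. Kallisto divides reads that fit several transcripts by estimation, so these shares are less certain than the gene's sum, and none was tested. For *Mcm7*, a predicted noncoding transcript took 40.0%, 68.9% and 45.7% of the counts with the CELF2 antibody, 77.3%, 96.1% and 100% with IgG and 21.5%, 19.4% and 14.5% in input. The coding transcript of this helicase subunit was therefore the larger share in every input library and a minor share in every IgG RIP library. For *Mcm5*, a predicted noncoding transcript held 50.9% to 74.4% in IgG RIP, 39.3% to 67.0% in CELF2-KI RIP and 74.1% to 80.5% in input. For *Pola1*, a predicted noncoding transcript held 12.1%, 19.5% and 8.46% with the CELF2 antibody, 23.7%, 30.0% and 25% with IgG and 6.49%, 15.5% and 20.7% in input. Of the 5 transcripts of *Tyms*, a predicted coding transcript held 48.1%, 92.7% and 82.0% with the CELF2 antibody, 76.3%, 86.9% and 49.8% with IgG and 45.8%, 47.3% and 57.4% in input, where the curated coding transcript held a further 29.1% to 37.0%. *Birc5* divided between a pair of curated coding transcripts, and the second held 83.7%, 92.9% and 93.5% with the CELF2 antibody, 96.8%, 98.5% and 82.9% with IgG and 55.3%, 63.1% and 59.3% in input. In *Cenpf*, the curated coding transcript held 75.8% to 100% with the CELF2 antibody, 77.8% to 80.9% with IgG and 55.9% to 66.7% in input. In *Birc5* and *Cenpf* both precipitates thus leaned the same way relative to input.

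**Figure D5:**
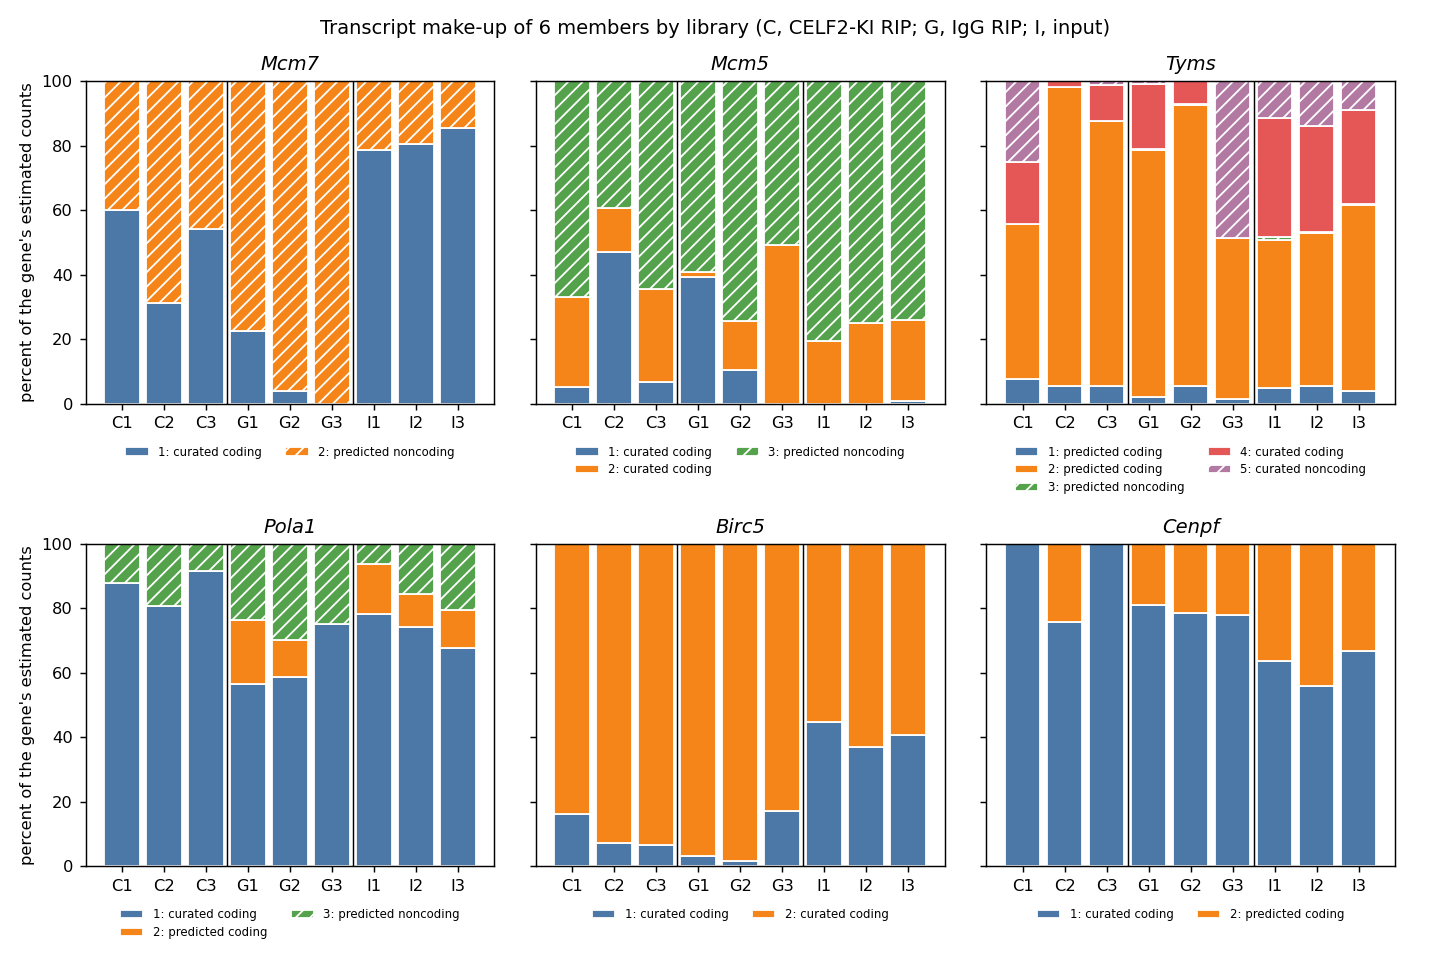
Stacked bars give the percent of a gene's estimated counts held by each of its transcripts in each library, hatched where the transcript is noncoding, for *Mcm7*, *Mcm5*, *Tyms*, *Pola1*, *Birc5* and *Cenpf*. The noncoding transcript of *Mcm7* takes 77.3% to 100% in IgG RIP and 14.5% to 21.5% in input.

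Other genes of the same pathways, from lists written by symbol, were counted in the same fit. Of 39 other mitosis genes, 1 rose (2.56%, against 13.4% of all tested genes) and 5 fell (12.8%, against 13.6%) in CELF2-KI RIP against IgG RIP. Against input 3 rose (7.69%, against 14.6%) and 4 fell (10.3%, against 15.5%). The 1 that rose over IgG RIP was *Cks2*, for a small CDK-binding protein (1.75 on the log2 scale, FDR 0.000804). The largest falls were *Ndc80*, for the kinetochore's microtubule hook (-2.36, FDR 0.00027), *Smc4*, for a condensin subunit (-2.14, FDR 0.000166), and *Kif4*, for a chromosome motor (-1.12, FDR 0.00111). *Ndc80* was at only 0.64, 0.77 and 0.446 CPM with the CELF2 antibody, near the 0.5 CPM filter. These 39 genes had a median of -0.28 on the log2 scale over IgG RIP and -0.26 over input.

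Of 39 other replication genes, 3 rose (7.69%, against 13.4% of all genes) and 10 fell (25.6%, against 13.6%) against IgG RIP. Against input 3 rose (7.69%, against 14.6%) and 8 fell (20.5%, against 15.5%). The rises were *Rpa2*, for a single-strand binding subunit (1.74, FDR 0.000268), *Cdc7*, for the kinase that fires origins (1.17, FDR 0.000133), and *Dut*, for the enzyme that removes dUTP (1.01, FDR 0.000254). The largest falls were *Pold2*, for a subunit of DNA polymerase delta (-2.09, FDR 0.000126), and the clamp loader genes *Rfc4* (-1.78, FDR 0.00306) and *Rfc1* (-1.38, FDR 4.57e-05). *Rfc4* was at only 1.76, 0.77 and 1.07 CPM with the CELF2 antibody. The clamp loader places PCNA on DNA. *Rfc3* and *Rfc5* fell too (-1.13 and -1.10), whereas *Rfc2* was at -0.03 (FDR 0.866), and these 3 are named after their values were seen. The 39 genes had a median of -0.52 on the log2 scale over IgG RIP and -0.39 over input. Both lay on the same side of 0 as those of the 17 replication genes listed above. The 39 other mitosis genes were below 0 too, at -0.28 over IgG RIP, unlike the 21 listed mitosis genes (0.07). Over IgG RIP the medians of the wider lists thus lay closer together than those of the listed genes (-0.57 and 0.07).

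Of 28 other G1 and G1/S regulators, 27 were tested, 10 rose (37.0%, against 13.4% of all genes) and 2 fell (7.41%, against 13.6%) against IgG RIP. Against input 8 rose (29.6%, against 14.6%) and 3 fell (11.1%, against 15.5%). *Ccnd3*, the remaining cyclin D gene, named after its values were seen, was at 19.3, 10.9 and 15.7 CPM with the CELF2 antibody, 19.7, 21.2 and 16.1 with IgG and 34.3, 35.9 and 42.3 in input. Unlike *Ccnd1* and *Ccnd2*, it fell against input (log2 fold change -1.29, FDR 0.000401), and it was not called against IgG RIP (-0.31, FDR 0.237). *Cdk6*, whose kinase pairs with D-type cyclins, was at 101, 197 and 122 CPM with the CELF2 antibody, 46.8, 43.1 and 38.1 with IgG and 43.1, 40.4 and 34.9 in input (log2 fold change 1.71 over IgG RIP, FDR 0.000131). *Cdk4*, for the other cyclin D kinase, was at 35.9, 30.8 and 26.6 CPM, against 76.4, 68.3 and 85.6 CPM and then 120, 109 and 111 CPM (-1.30 over IgG RIP, FDR 3.58e-05). The cyclin D kinases therefore lay on opposite sides of both controls. With *Cdk6*, the 3 largest rises over IgG RIP included the CDK inhibitor genes *Cdkn2d* (2.05, FDR 3.53e-05) and *Cdkn1a* (1.74, FDR 2.42e-05), and the fall besides *Cdk4* was in *Cdkn1c* (-1.05, FDR 0.00268), also for a CDK inhibitor. The 27 genes had a median of 0.43 on the log2 scale against IgG RIP and 0.42 against input.

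Cell type markers were read in the same libraries. All 10 markers of radial glia and progenitors were detected, and their summed level was 524 to 987 CPM with the CELF2 antibody, 779 to 867 with IgG and 1191 to 1393 in input. Most of that sum with the CELF2 antibody was 1 gene that was not called against either control. That gene was at 710.1, 342 and 424 CPM there, 338, 310.1 and 351 with IgG and 746, 647 and 588 in input. Of the 10, 4 fell against IgG RIP (13.6% of all tested genes did) and 4 against input (15.5%). Excitatory neuron markers (8 of 8 tested) summed to 1681 to 2290.1 CPM with the CELF2 antibody, 913 to 1062 with IgG and 994 to 1165 in input, with 4 higher than IgG RIP (13.4% of all genes were), and 3 higher and 1 lower than input (14.6% and 15.5%). Inhibitory neuron markers (6) summed to 587 to 725, 330 to 382 and 462 to 479 CPM in the same order, with 2 higher than IgG RIP, and 1 higher and 1 lower than input. The 5 erythroid markers tested summed to 92.7 to 95 CPM with the CELF2 antibody, 366 to 584 with IgG and 877 to 1135 in input, and 5 fell against IgG RIP and 4 against input. Markers of oligodendrocyte precursors (5 genes) summed to 547 to 655, 546 to 573 and 489 to 557 CPM, those of microglia (7) to 99.2 to 139, 68.2 to 93.3 and 156 to 203 CPM, and those of endothelium (6) to 177 to 257, 162 to 364 and 213 to 336 CPM, in that same order. Against input 2, 4 and 2 of these fell and 1 microglial gene rose, and against IgG RIP 1 microglial gene rose and 2 fell, and 1 endothelial gene fell. Of all tested genes, 15.5% fell and 14.6% rose against input, and 13.6% fell and 13.4% rose against IgG RIP. The microglial gene that rose over input was at 0, 2.93 and 3.39 CPM with the CELF2 antibody and at 0 in every input. The gene that rose over IgG RIP was a different one, at 89.4, 108 and 77.7 CPM with the CELF2 antibody, most of the microglial sum there. Most of the oligodendrocyte precursor sum with the CELF2 antibody was likewise 1 gene, at 394, 368 and 361 CPM, which was not called. The part of the makeup of the fraction in the levels of the cell cycle genes was not tested.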

How the data were processed

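RNA was sequenced in 9 libraries, grouped by their titles into 3 conditions of 3. Per the labels and the methods, rRNA-depleted strand-specific libraries were made, and reads passed through FastQC 0.11.9, fastp 0.23.4, Ribodetector 0.3.1 and kallisto 0.51.1. Its estimated counts were deposited as 1 table with a row per transcript, without normalization for depth or length. The methods name Ensembl, while the rows carry RefSeq accessions.

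Rows were matched to genes by accession with the RefSeq table of GRCm38.p6, and 20662 of 107384 rows (19.2%) had no gene there and were left out. All 9 columns were used. Counts were summed per gene and rounded. The 15267 protein-coding genes that reached 0.5 CPM in 3 or more libraries were scaled by TMM and tested with edgeR 4.0.16's quasi-likelihood test (R 4.3.3), without covariates; the authors named edgeR 4.4.0 and DESeq2 1.46.0. Standard errors were taken as the log2 fold change over the square root of F. A call needed an FDR (Benjamini-Hochberg) under 0.01 and a 2-fold difference. Alternatives were other scalings and filters, DESeq2 1.42.0, glmTreat, a replicate block, fits of only the conditions compared, leaving out each library and, chosen after seeing the data, only coding or only curated coding transcripts. Tables used pandas 2.3.3 under Python 3.11.15, and plots matplotlib 3.10.9.

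The members and gene lists were chosen with earlier results of these data known. All members are named. Of each pathway list the 3 largest rises and 3 largest falls over IgG RIP among called genes are named, and others only where the text says so. Deviations of same-numbered libraries correlated weakly between CELF2-KI RIP and input (0.185, 0.122 and 0.213 across 11534 genes). The values were lower between the precipitates (-0.07, 0.038 and -0.011) and between IgG RIP and input (0.087, 0.064 and 0.008). Differently numbered libraries were not compared, so these values do not settle which conditions the numbers pair. Replicates differed by more than sampling noise (chi-square per gene 12.2 to 46.1), and reads carry no molecular identifiers, so SDs and p-values cover only the spread between these libraries. The fit was also run on simulated counts with few genes changed, equally in both directions, and the same spread for every gene. That run cannot judge the choice of scaling. Cell types were listed by marker symbols.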

Additional observations from a re-analysis of the deposited data

How the results depend on the processing

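The 43 genes gave 5 higher and 4 lower calls against IgG RIP, 3 and 7 against input, 3 and 4 against both, and 2 and 1 for IgG RIP against input. Testing against the 2-fold threshold itself (glmTreat) left 2 higher and 2 lower than IgG RIP, 1 and 1 than input, 1 and 1 than both, and 0 and 0 for IgG RIP over input. With total counts there were 3 higher and 10 lower than IgG RIP, 1 and 12 than input, 1 and 7 than both, and 3 lower in IgG RIP than input, while the shares of all tested genes were 6.14% and 22.4%, 3.48% and 23.5%, 1.55% and 16%, and 6.68%. With TMM over all genes there were 9 lower than IgG RIP, 11 lower than input, 1 higher than input and than both, and 3 lower in IgG RIP than input (18.5%, 22.1%, 4.63%, 2.46% and 8.16% of all genes). Upper-quartile scaling gave 10 lower than IgG RIP (19.8% of all genes). With glmTreat 0.347% to 7.32% of all genes were called in any of these. Calls higher than input and than both controls also dropped to 1 each with upper quartile, no filter, DESeq2's size factors or its Wald test and the fits of only the 2 conditions, and to 1 without CELF2-KI RIP 2 or input 2. There, 7.71% to 11.2% of all tested genes were higher than input and 3.40% to 5.74% higher than both, against 14.6% and 7.58% in the main fit. Those 2-condition fits gave 2 lower than IgG RIP (11.8% of all genes), 2 lower than both (9.09%) and 0 lower in IgG RIP than input (4.79%). For the last, DESeq2's size factors gave 3 (6.46%) and its Wald test 4 (7.38%). With coding transcripts only, IgG RIP had 1 higher and 0 lower than input (5.89% and 4.79% of all genes), and with curated coding transcripts 0 lower (2.77%).

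Leaving out 1 library gave 5 to 7 higher and 3 to 7 lower than IgG RIP (7 lower without IgG RIP 3), 1 to 3 higher and 5 to 9 lower than input, 1 to 3 higher and 2 to 5 lower than both, and 0 to 3 lower in IgG RIP than input. Without CELF2-KI RIP 2 or 3, or input 1, 2 were lower than both (8.14%, 7.94% and 8.63% of all genes). In the fit with a replicate block, 5 were higher and 5 lower than IgG RIP (13.3% and 12.7% of all genes), 3 higher and 7 lower than input (14.0% and 15.1%), and 5 lower than both (9.01%). *Rrm2* against IgG RIP was the added call, and no other call changed.

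The gap of -0.64 between replication and mitosis medians over IgG RIP was -0.51 with at least 5 CPM and -0.56 with curated coding transcripts, and -0.73 to -0.34 without 1 library (-0.34 without IgG RIP 3). Over input it was -0.15 with curated coding transcripts and -0.11 to 0.20 without 1 library. No called gene changed sign. *Tyms* over input, which was not called, went from 0.85 to -1.10 with curated coding transcripts. The cause of these shifts was not tested. Depth limited *Ccnb2*, *Gins1*, *Gins2*, *Cdc6*, *Cenpe* and *Mad2l1*, with at most 34 counts in each CELF2-KI RIP library.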
